A study of Mus musculus with 16 samples.

Results

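Thyroid hormone binding, activation and reception were followed through 5 genes, Crym, Ttr, Dio2, Thra and Thrb, in inner ears of newborn (P0) mice that lack the nuclear receptor COUP-TFI. Every probe set whose platform symbol is one of these genes was taken. All 5 genes are on the chip, with 6 probe sets (2 of them for Thra) of the 12422 probe sets tested and of 8251 genes that carry a single symbol. COUP-TFI-/- ears were compared with wild-type ears, both of the 129SvEv strain and both dissected as whole inner ears, so that every inner ear cell type and any adhering tissue contributed RNA. The COUP-TFI-/- allele is a germline null, so the receptor is lacking in every tissue of the animal. RNA was pooled over several ears, and 1 pool of each genotype was hybridized in duplicate to Affymetrix MG-U74Av2 chips in each of 2 sets run at different times, taken here to be the letters A and B of the chip labels. Each genotype is therefore represented by 2 pools and 4 chips. Each chip was deposited with a log2 GCRMA value and a linear dChip intensity per probe set.

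Thyroid hormone reaches tissues as thyroxine bound to plasma carriers, among them transthyretin, the product of Ttr. Inside cells, the type 2 deiodinase encoded by Dio2 converts it to the active triiodothyronine, the mu-crystallin encoded by Crym binds triiodothyronine in the cytosol, and the receptors encoded by Thra and Thrb, usually paired with a retinoid X receptor, bind it in the nucleus and switch target genes. The developing cochlea depends on this hormone, and loss of Thrb or of Dio2 impairs hearing in mice. COUP-TFI is an orphan receptor of the same superfamily and binds the same AGGTCA half-site.

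The deleted gene Nr2f1 had GCRMA log2 levels of 5.27, 5.08, 4.68 and 4.69 on COUP-TFI-/- chips A1, A2, B1 and B2, against 8.83, 8.72, 7.90 and 7.74 on the wild-type chips in the same order. Its COUP-TFI-/- minus wild-type difference was -3.37 on the log2 scale (limma, adjusted p = 5.9e-11), so the chip labels fit the genotype. Over all probe sets the median absolute genotype difference was 0.060 log2 and the median SD between duplicate chips was 0.089 log2 in the GCRMA values. The median absolute difference between sets A and B was 0.16 log2, larger than that between genotypes.

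No member passed an adjusted p under 0.05 for genotype, in the GCRMA values (0 of 6, where 0.105% of all probe sets passed) or in the dChip values (0 of 6, against 0.00805%). At an unadjusted p under 0.05, 2 of the 6 probe sets, those of Crym and Ttr, were lower in COUP-TFI-/- ears in both normalizations. Of all probe sets, 4.58% had such a p in GCRMA and 2.13% in dChip, in either direction and in each normalization alone. The share lower in both was not taken. The members were chosen with earlier results of these data known, so this count does not measure an enrichment. The GCRMA ratio of COUP-TFI-/- to wild-type was 0.815 for Crym, the cytosolic binder, and 0.825 for Ttr, the plasma carrier. For Dio2 and the receptor probe sets the 95% intervals of the difference included 0; whether members differed from each other in their response was not tested. In the plot of levels by chip, Crym is the 1 member whose COUP-TFI-/- points all lie under its wild-type points.

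**Figure D1:**
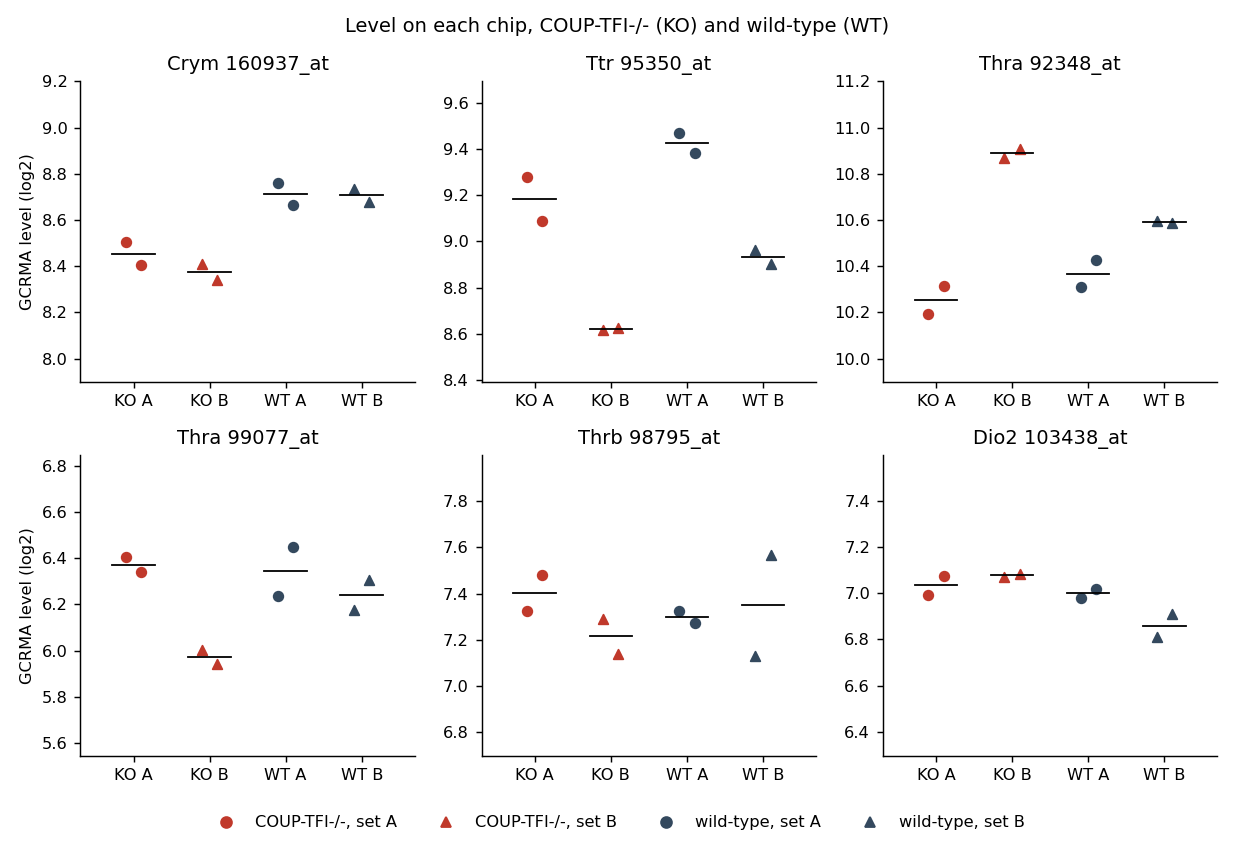
GCRMA log2 level of each of the 6 probe sets on each chip, with COUP-TFI-/- (KO, red) left of wild-type (WT, dark), set A as circles, set B as triangles and the mean of the 2 duplicate chips as a line; every panel spans the same log2 range. The 4 COUP-TFI-/- chips of Crym lie between 8.34 and 8.51, under wild-type chips between 8.67 and 8.76, while Ttr and the first Thra probe set also separate by set.

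Crym, which encodes the cytosolic triiodothyronine-binding protein mu-crystallin and is linked to hearing loss in people, was read by probe set 160937_at. Its GCRMA log2 levels were 8.51, 8.40, 8.41 and 8.34 on COUP-TFI-/- chips A1, A2, B1 and B2, against 8.76, 8.67, 8.74 and 8.68 on the wild-type chips. All 4 COUP-TFI-/- chips were below all 4 wild-type chips, a separation in this direction that 0.91% of all probe sets had. The dChip intensities were 1265, 1064, 999 and 1100 in COUP-TFI-/- ears, against 1362, 1262, 1417 and 1322 in wild-type ears, and here COUP-TFI-/- chip A1 overlapped wild-type chip A2.

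Crym averaged 8.42 ± 0.056 log2 in COUP-TFI-/- ears and 8.71 ± 0.0041 log2 in wild-type ears (GCRMA, SD over pools, n = 2 each). The difference was -0.30 log2 (SE 0.096, 95% interval -0.50 to -0.09), which is a COUP-TFI-/- to wild-type ratio of 0.815. Set A alone gave -0.26 and set B alone -0.33. Limma gave an unadjusted p of 0.00737, the 128th smallest of all probe sets, and an adjusted p of 0.705. In dChip the difference was -0.28 log2 (95% interval -0.56 to -0.0044, unadjusted p = 0.0475), with -0.18 in set A and -0.38 in set B. When duplicate chips were entered as replicates, the GCRMA adjusted p of Crym was 0.0325 with the difference unchanged at -0.30; over all alternatives it ran from 0.0325 to 1.00, and that fit measures the spread between duplicate chips of a pool rather than between pools.

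Ttr encodes transthyretin, a carrier of thyroxine and of the retinol-binding protein complex that is made mainly by liver and choroid plexus. Its probe set 95350_at had GCRMA log2 levels of 9.28, 9.09, 8.62 and 8.62 on COUP-TFI-/- chips A1, A2, B1 and B2, against 9.47, 9.38, 8.96 and 8.90 on the wild-type chips. The dChip intensities were 473, 432, 310 and 326 in COUP-TFI-/- ears, against 541, 530, 393 and 376 in wild-type ears. The groups overlapped over all chips, because set A was high in both genotypes, but inside either set the COUP-TFI-/- chips were the lower pair. That held in both normalizations for Ttr, as it did for 1.04% of all probe sets; Crym met it in GCRMA only.

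Ttr averaged 8.90 ± 0.40 log2 in COUP-TFI-/- ears and 9.18 ± 0.35 log2 in wild-type ears (GCRMA, SD over pools, n = 2 each). The paired difference was -0.28 log2 (SE 0.096, 95% interval -0.48 to -0.07), a ratio of 0.825, made up of -0.24 for set A and -0.31 for set B. The unadjusted limma p was 0.0109 and the adjusted p 0.752. In dChip it was -0.26 log2 (95% interval -0.51 to -0.0053, unadjusted p = 0.0467), with -0.24 in set A and -0.27 in set B. With duplicate chips as replicates the GCRMA adjusted p was 0.0548, the lowest over the alternatives, whose highest was 1.00.

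The study's candidate rule asks for no genotype-by-set interaction in a 2-way analysis of variance and a genotype p under 0.01 in 1 normalization and under 0.05 in the other. Applied to these values, it took in Crym and Ttr but none of the other 4 probe sets, and 176 probe sets in all, 1.42%. Crym was one of the genes tabulated by the study from these chips, so its direction is not independent evidence.

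**Figure D2:**
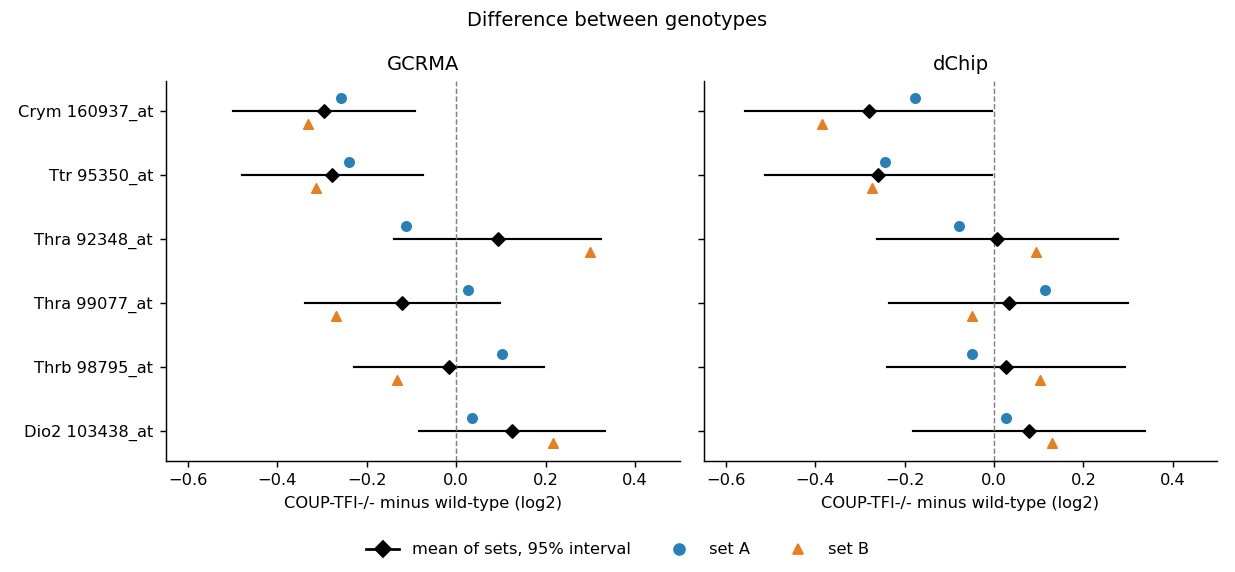
COUP-TFI-/- minus wild-type difference (log2) of each probe set in GCRMA (left) and dChip (right); diamonds are the mean of both sets with limma's 95% interval, circles are set A and triangles set B. Crym and Ttr lie below 0 in both sets and both normalizations, whereas the Thra and Thrb points of sets A and B fall on opposite sides of 0.

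Crym and Ttr had a high correlation over the chips. After each set's mean was subtracted, the Pearson r between them over the 8 chips was 0.981 in GCRMA and 0.943 in dChip. The 8 points come from 4 pools, and they share chip, RNA pool and genotype, so that the difference between genotypes is itself part of this r. Without subtracting the set means, r was 0.599 in GCRMA and 0.560 in dChip, as Ttr differed between sets and Crym much less. By the lower r of both normalizations, the other genes most like Crym were Hmgcs1, an enzyme of cholesterol synthesis (r = 0.961 in GCRMA and 0.923 in dChip), and Pclaf, a partner of the replication clamp (0.936 and 0.922). Those most like Ttr, besides Crym, were Sdc1, a cell-surface proteoglycan (0.950 and 0.946), and Rbm8a, a core protein of the exon junction complex (0.969 and 0.927).

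**Figure D3:**
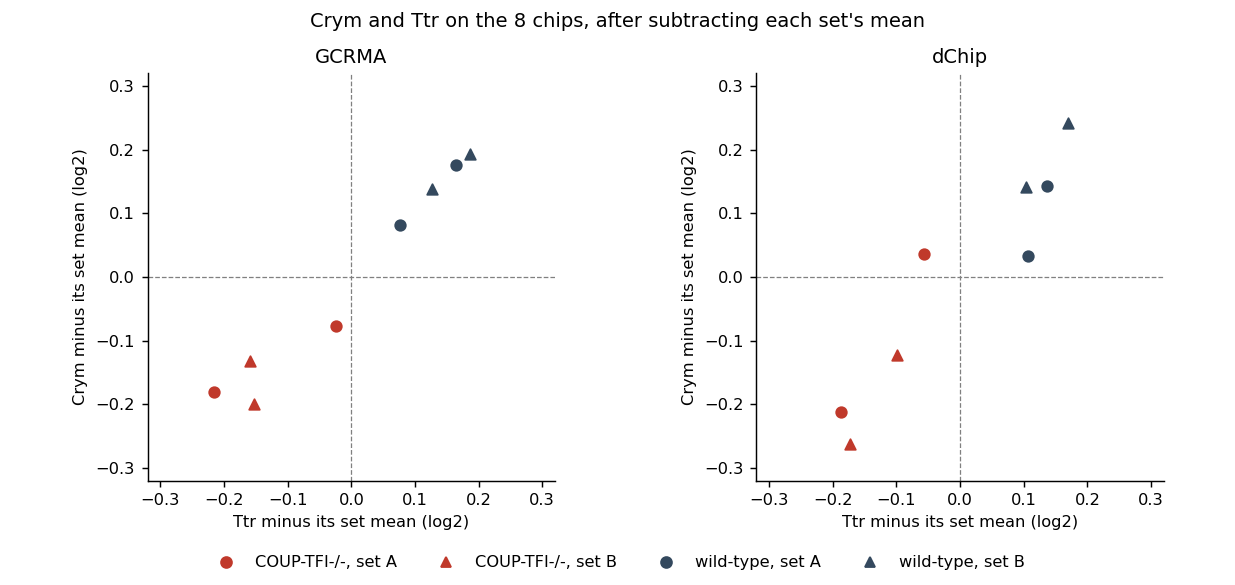
Crym (vertical axis) against Ttr (horizontal axis) on the 8 chips, each as log2 level minus its mean in that set, in GCRMA (left) and dChip (right); red is COUP-TFI-/-, dark is wild-type, circles are set A and triangles set B. The 4 COUP-TFI-/- chips lie at the lower left of the 4 wild-type chips in GCRMA, with r = 0.981 in GCRMA and 0.943 in dChip.

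Markers of the tissues known to make Ttr had medians near 0 in GCRMA, the normalization of the values below. In dChip the median difference was -0.0091 log2 for choroid plexus genes and -0.046 log2 for liver genes, so the sign turned for both. Of 12 choroid plexus genes chosen, 5 were measured, none passed the test and their median difference was 0.03 log2. Their mean level ran from 6.30 to 6.52 log2 on COUP-TFI-/- chips and from 6.35 to 6.45 log2 on wild-type chips. Of these 5, 2 were below 0. The list held dim genes, with GCRMA pool means of 3.65 to 3.90 log2 for Kl and 4.51 to 5.17 log2 for Slc4a5. How much choroid plexus RNA the pools held was not tested. Of 10 liver genes, 8 were measured, 3 were below 0, none passed, and their median difference was 0.0032 log2. The plasma protein gene Ahsg had 0.21 log2, albumin, Alb, had -0.16 log2 (0.11 in set A, -0.43 in set B) and alpha-fetoprotein, Afp, had -0.09 log2, each with an adjusted p of 1.00.

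Several cochlear cell markers lay lower alongside Crym and Ttr. All 6 measured of 8 genes of cochlear non-sensory epithelium had a GCRMA difference below 0, where 49.7% of all probe sets did. This and the other marker lists were chosen with earlier results of these data known, so their counts are description only. The study had already tabulated Tectb of this list and Gjb2 of the fibrocyte list from these chips, so their direction is not independent evidence. Among them the otogelin gene Otog lay near 0, with -0.0041 log2 in GCRMA and 0.0031 log2 in dChip. The median of the 6 was -0.22 log2 and none passed the test. Their mean level lay between 8.12 and 8.59 log2 on COUP-TFI-/- chips and between 8.39 and 8.86 log2 on wild-type chips. Tectb, which encodes the tectorial membrane protein beta-tectorin, had a difference of -0.48 log2 (adjusted p = 0.106), and Sox2, a transcription factor of the prosensory domain, had -0.36 log2 (adjusted p = 0.427). Of 8 genes of cochlear fibrocytes and other connective tissue of the lateral wall, 6 were measured and 5 were below 0, with a median of -0.13 log2, none past the test, and a mean level of 8.93 to 9.63 log2 on COUP-TFI-/- chips and 9.07 to 9.74 log2 on wild-type chips. The gap junction gene Gjb2 in that list had -0.29 log2 (adjusted p = 0.847). Of 11 hair cell genes, 5 were measured, 1 was below 0, none passed and the median was 0.03 log2; Calb2, a calcium buffer, had -0.25 log2 (adjusted p = 0.909).

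Striated muscle genes lay higher. All 12 genes chosen were measured, none was below 0, their median difference was 0.38 log2 and 2 rose past the test, the developmental myosins Myh3 by 0.80 log2 (adjusted p = 0.014) and Myh8 by 0.98 log2 (adjusted p = 0.0092), where 0.105% of all probe sets passed. In dChip their differences were 0.82 and 0.95 log2, but 0 muscle genes passed. The mean level of the muscle genes lay between 8.53 and 8.75 log2 on COUP-TFI-/- chips, against 8.47 to 8.52 log2 on wild-type set A chips and 8.02 to 8.03 log2 on wild-type set B chips. Within set A some of these genes were below 0, among them Ckm (-0.19 log2, against 0.98 log2 in set B), while Myh3 and Myh8 were higher in both sets. The study found striated-muscle classes overrepresented among genes with an interaction, which in its reading theoretically reflect tissue contamination during dissection. Of 9 pituitary genes, 8 were measured and none passed, although growth hormone, Gh, differed by -0.90 log2 in set A and by 1.77 log2 in set B. The share of these tissues in the Crym and Ttr differences was not tested, and in whole ears fewer cells of a type and less RNA per cell cannot be told apart.

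Dio2 encodes the deiodinase that activates thyroxine inside cells, in the cochlea mainly in connective tissue. No promoter window of Crym, Ttr or Thra was searched here. RefSeq promoter windows (GRCm38.p6), from 250 bases before a gene's start to 50 after it, were taken for 2 of the 5 genes, Dio2 and Thrb. They were searched on both strands for the AGGTCA half-site bound by COUP-TFI and thyroid hormone receptors, for 2 such half-sites in the same orientation 1 or 4 bases apart, for the cyclic AMP response element TGACGTCA and for the TATA box letters TATAAA. The Dio2 window at chr12:90738989-90739288, minus strand, is shown because it held 2 of these motifs, in capitals, and no half-site:
Dio2 promoter: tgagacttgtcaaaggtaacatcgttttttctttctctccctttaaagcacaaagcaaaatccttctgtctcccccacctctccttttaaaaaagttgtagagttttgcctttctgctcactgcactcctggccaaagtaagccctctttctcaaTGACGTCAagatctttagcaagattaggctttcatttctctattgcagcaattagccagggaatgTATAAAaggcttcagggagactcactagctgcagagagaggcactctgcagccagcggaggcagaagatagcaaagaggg
The cyclic AMP response element lies 95 to 88 bases before the start, at chr12:90739126-90739133, and the TATA letters lie 30 to 25 bases before it. Of 32851 mouse promoter windows, 1.79% held the response element, 13.6% the TATA letters and 16.3% the half-site, while the repeats with 1 and 4 bases between were in 0.0396% and 0.0152%. A match describes these letters, not a bound site.

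The Dio2 probe set 103438_at had GCRMA log2 levels of 6.99, 7.08, 7.07 and 7.08 on COUP-TFI-/- chips A1, A2, B1 and B2, against 6.98, 7.02, 6.81 and 6.91 on the wild-type chips. The dChip intensities were 442, 477, 396 and 452 in COUP-TFI-/- ears, against 460, 443, 374 and 399 in wild-type ears. The genotypes overlapped in set A and were apart in GCRMA in set B, where both wild-type chips were low. The difference was 0.13 log2 in GCRMA (95% interval -0.08 to 0.33, unadjusted p = 0.218), with 0.035 in set A and 0.22 in set B. It was 0.078 log2 in dChip (95% interval -0.18 to 0.34). Both intervals include 0. The GCRMA level of Dio2 was below the median of all probe sets. Over the 8 chips, Dio2 was most like the membrane protein genes Tmem43 (r = 0.949 in GCRMA and 0.963 in dChip) and Tmem176a (0.916 and 0.925) and the spindle protein gene Numa1 (0.900 and 0.881), on the same set-centred scale.

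Thra encodes the alpha receptor, with splice forms that bind hormone and a form that does not; which of them each probe set reads was not known here. Probe set 92348_at had GCRMA log2 levels of 10.19, 10.32, 10.87 and 10.91 on COUP-TFI-/- chips A1, A2, B1 and B2, against 10.31, 10.43, 10.60 and 10.59 on the wild-type chips. In set B both COUP-TFI-/- chips were above both wild-type chips, and in set A the genotypes overlapped. The set A pools differed by -0.11 log2 and the set B pools by 0.30 log2, with a mean of 0.09 log2 (95% interval -0.14 to 0.32, unadjusted p = 0.407). The difference in set A minus that in set B was -0.41 log2 (SE 0.118). In limma on the 8 chips this genotype-by-set term had an unadjusted p of 0.00443 and an adjusted p of 0.126, so 0 of the 6 probe sets passed for interaction, where 0.958% of all did. The dChip intensities of 92348_at were 1640, 1734, 2168 and 2308 in COUP-TFI-/- ears, against 1777, 1785, 2078 and 2113 in wild-type ears, with a difference of 0.0077 log2 (95% interval -0.26 to 0.28).

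The other Thra probe set, 99077_at, lay below the median level of all probe sets in both normalizations. Its GCRMA log2 levels were 6.40, 6.34, 6.002 and 5.94 on COUP-TFI-/- chips A1, A2, B1 and B2, against 6.24, 6.45, 6.18 and 6.30 on the wild-type chips. In set B it was lower in COUP-TFI-/- ears by GCRMA, the opposite of 92348_at. Its difference was -0.12 log2 in GCRMA (95% interval -0.34 to 0.10, unadjusted p = 0.256) and 0.033 log2 in dChip (95% interval -0.23 to 0.30), so the sign turned with the normalization. The dChip intensities were 254, 229, 174 and 149 in COUP-TFI-/- ears and 199, 249, 163 and 170 in wild-type ears. The 2 Thra probe sets thus gave no common direction for genotype. The Thra gene overlaps Nr1d1, a circadian repressor gene, in the RefSeq annotation; the Nr1d1 probe set had a difference of 0.015 log2 in GCRMA and -0.079 log2 in dChip. The genes whose chip pattern was most like that of 92348_at were Nelfcd, a subunit of a transcription elongation factor (r = 0.952 in GCRMA and 0.933 in dChip), Med24, a Mediator subunit that lies beside Thra with 0 annotated genes between (0.905 and 0.937), and Plp2 (0.892 and 0.959).

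Thrb encodes the beta receptor, the form whose loss causes deafness in mice and people. It has 2 RefSeq promoter windows. The one at chr14:17660710-17661009, plus strand, is shown because it was the 1 searched member window with an AGGTCA half-site. The half-site, in capitals, lies 184 to 179 bases before the start, at chr14:17660776-17660781:
Thrb promoter: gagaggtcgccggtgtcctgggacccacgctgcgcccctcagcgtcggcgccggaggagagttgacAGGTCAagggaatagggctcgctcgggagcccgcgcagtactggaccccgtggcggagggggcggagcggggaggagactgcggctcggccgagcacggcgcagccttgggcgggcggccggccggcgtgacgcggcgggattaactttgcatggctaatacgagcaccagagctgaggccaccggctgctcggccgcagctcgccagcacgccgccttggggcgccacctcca
The second window, at chr14:17981394-17981693 on the plus strand, held no half-site and had TATA letters 167 to 162 bases before its start. None of the searched windows of Dio2 and Thrb held either repeat of half-sites.

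Probe set 98795_at of Thrb had GCRMA log2 levels of 7.33, 7.48, 7.29 and 7.14 on COUP-TFI-/- chips A1, A2, B1 and B2, against 7.33, 7.27, 7.13 and 7.57 on the wild-type chips. Wild-type chips B1 and B2, from the same RNA pool, lay farther apart than the genotype means of either set did. The dChip intensities were 387, 396, 385 and 373 in COUP-TFI-/- ears and 427, 384, 363 and 343 in wild-type ears. The groups overlapped in both. The genotype difference was -0.015 log2 in GCRMA (95% interval -0.23 to 0.20, unadjusted p = 0.879) and 0.027 log2 in dChip (95% interval -0.24 to 0.29). The genes most like Thrb over the chips were the desmosome gene Dsc1 (r = 0.873 in GCRMA and 0.886 in dChip), the lipid-binding gene Osbpl1a (0.840 and 0.813) and the homeobox gene Nkx6-2 (0.787 and 0.786).

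Set A differed from set B for some members more than genotype did. Of the 6 probe sets, 2 passed an adjusted p under 0.05 for set in GCRMA, where 25.8% of all did, and 2 passed in dChip, where 11.7% did. Ttr was higher in set A by 0.53 log2 in GCRMA (adjusted p = 9.2e-04) and by 0.49 log2 in dChip (adjusted p = 0.0396). The Thra probe set 92348_at was lower in set A, by -0.43 log2 in GCRMA (adjusted p = 0.00907) and -0.32 log2 in dChip (adjusted p = 0.108). The other Thra probe set, 99077_at, ran the other way, with 0.25 log2 in GCRMA (adjusted p = 0.0838) and 0.50 log2 in dChip (adjusted p = 0.0427). For Crym, Thrb and Dio2 the set A minus set B difference was 0.04, 0.07 and 0.05 log2 in GCRMA, none past the test. Of the cochlear lists that were lower alongside Ttr, 5 of 6 fibrocyte genes and 5 of 6 non-sensory epithelium genes were also past the test as higher in set A; the sixth of the epithelium list, Epyc, which encodes a small proteoglycan, passed as lower in set A, by -0.40 log2 (adjusted p = 0.0089). The cause of the set difference was not tested.

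Other genes of the hormone pathway were taken from 6 lists, chosen with earlier results of these data known. The lists are not separate from the marker lists: Alb, Gh and Tectb are in both kinds. Of 74 listed genes 49 were measured, of which 1 rose, 1 fell and 47 did not pass, where 0.105% of all probe sets passed in either direction. The median difference was 0.04 log2 in GCRMA and 0.02 log2 in dChip, beside 0.00077 and -0.0089 log2 over all probe sets. Among plasma carriers other than Ttr, 2 of 3 were measured and neither passed. Among membrane transporters, 4 of 10 were measured and none passed; the amino acid and thyroid hormone transporter Slc7a5 had 0.17 log2. Among 16 receptor partners, 13 were measured and none passed, and the histone acetyltransferase Kat2b had 0.25 log2 (adjusted p = 0.977). Of 9 genes of hormone synthesis in the thyroid gland, 3 were measured and none passed, with 0.16 log2 for the thyrotropin receptor gene Tshr.

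The gene that rose was Sult1a1, of the list of deiodinases and conjugating enzymes (4 of 6 measured), which encodes a sulfotransferase of phenols and iodothyronines. Its GCRMA pool means were 7.50 log2 in set A and 7.60 log2 in set B in COUP-TFI-/- ears, against 6.96 and 6.87 log2 in wild-type ears, a difference of 0.64 log2 (adjusted p = 0.014). The pool means of the genotypes did not overlap, but Sult1a1 is named for passing the test on these same pool means. A dimmer second probe set of Sult1a1, 162130_r_at, had -0.088 log2 (adjusted p = 1.00), so the probe sets disagreed. Dio1, the type 1 deiodinase of liver and kidney, had -0.0093 log2 in GCRMA and -0.075 log2 in dChip.

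The gene that fell was Ucp1, of 30 hormone-responsive genes (23 measured), which encodes the uncoupling protein of brown fat. Its GCRMA pool means were 7.81 log2 in set A and 6.61 log2 in set B in COUP-TFI-/- ears, against 8.72 and 8.21 log2 in wild-type ears, a difference of -1.26 log2 (adjusted p = 2.6e-04). Its second probe set, 161422_f_at, had -0.59 log2 (adjusted p = 0.021). In the study's own real-time RT-PCR on individual pairs of inner ears, the Ucp1 change did not reach statistical significance. The study also cites altered Ucp1 expression after COUP-TF knockdown in cultured skeletal muscle cells. It proposes that its list likely holds real targets, some of them likely beyond the sensitivity of that assay. The receptor target Klf9, a transcription factor, had 0.26 log2 (adjusted p = 0.998) by its probe set 93528_s_at and 0.46 log2 (adjusted p = 0.203) by 93527_at. Hr, a corepressor gene induced by thyroid hormone, had 0.08 log2 in GCRMA and 0.045 log2 in dChip. Neither Sult1a1 nor Ucp1 passed without COUP-TFI-/- chip A1 or without wild-type chip A2, when 0 list genes did. Sult1a1 also did not pass without wild-type chip B1. In dChip 0 list genes passed, where 1 of all 12421 probe sets did. The dChip differences by the same probe sets were 0.66 log2 for Sult1a1 and -0.95 log2 for Ucp1.

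**Figure D4:**
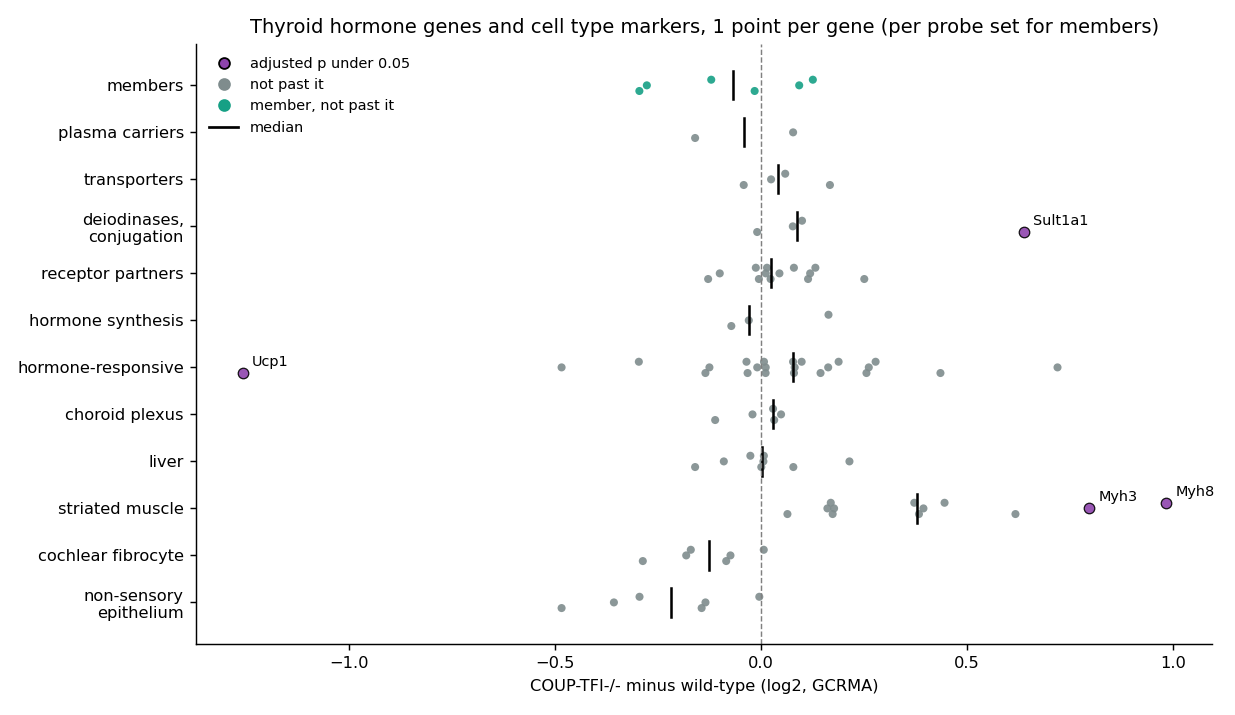
COUP-TFI-/- minus wild-type difference (log2, GCRMA) of the 6 member probe sets, the measured genes of the 6 thyroid hormone lists and 5 marker lists, 1 point per gene, with medians as lines and genes past an adjusted p of 0.05 outlined and named. Sult1a1 (0.64) and Ucp1 (-1.26) are the hormone pathway genes past the test, and the muscle genes lie to the right of 0 and the non-sensory epithelium genes to its left. Alb and Tectb are each in a hormone list and a marker list, and are drawn in both.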

How the data were processed

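Pools of whole newborn inner ear RNA, 2 per genotype, had been hybridized in duplicate to 8 chips. The deposited log2 values are GCRMA summaries per probe set, background-corrected and normalized by the authors. The deposited dChip intensity values are linear model-based expression, also made by the authors; 89 under 1 were set to 1 before taking log2. Software versions are not given in the sources used here. All 16 value columns were used. Of 12488 probe sets, 66 controls were left out; of the 12422 tested (12421 in dChip), 10833 have 1 symbol, 396 several and 1193 none.

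Duplicate chips were averaged and the 4 pool means fitted with limma 3.58.1 in R 4.3.3, with genotype and with set as a block, and Benjamini-Hochberg adjustment over all probe sets (2-sided, threshold 0.05). Residual degrees of freedom are 1, with 14.3 from limma's prior in GCRMA and 4.55 in dChip. Chips sharing a letter (A or B) were taken to form a set and the numbers 1 and 2 to be duplicates, after the methods' account of the hybridizations; the labels do not spell this out, and all set and pool values rest on it. The set pairs the pools: across probe sets, the set difference of one genotype correlated with that of the other with r = 0.752 in GCRMA and 0.688 in dChip. Genotype by set was fitted on the 8 chips, so its p-values rest on duplicate chips.

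Intensities carry no read depth, and precision rests on the few pools. Genes are named as members, as list genes past the adjusted p, and as the 3 genes most like a member. In a list with none past it, genes with an unadjusted p under 0.05 were eligible if both sets and both normalizations gave the same direction. Those with the largest GCRMA differences were named. Where none was eligible, the gene with the largest difference could be named. Some further genes, among them Otog, Afp, Ckm and Epyc, are named outside this rule. Where a gene has several probe sets, the brightest stands for it. The members, the 6 hormone lists and the 7 marker lists (choroid plexus, liver, pituitary, striated muscle, cochlear fibrocyte, non-sensory epithelium, hair cell) were chosen with earlier results of these data known. Alternatives were the dChip values, fits on the 8 chips, the methods' 2-way analysis of variance, the pool as a random block, no block, quantile normalization, a filter at the median level, a higher dChip floor of 16, the mean of a gene's probe sets and leaving out each chip.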

Additional observations from a re-analysis of the deposited data

Results flagged for a closer look

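Of the 24 groups of 4 chips examined (6 probe sets, 2 genotypes, 2 normalizations), 1 held a chip that stood apart from the others. For Dio2 in GCRMA, COUP-TFI-/- chip A1 was at 6.99 log2, and its gap to the next chip was 0.854 of the range of the COUP-TFI-/- chips, above Dixon's critical value for 4 samples. That value is set to pick out a share of 0.05 of groups of 4 independent values. Each group here holds duplicate chips of 2 pools from different sets, so that share need not apply.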

How the results depend on the processing

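The genotype differences of Crym (-0.32 to -0.27 log2 in GCRMA) and Ttr (-0.32 to -0.23) stayed below 0 in all 16 alternatives; Crym passed in 1 of them, limma on the 8 chips (-0.30, adjusted p = 0.0325, range 0.0325 to 1.00), and Ttr in none (0.0548 to 1.00). Dio2 stayed above 0 (0.078 to 0.15). The sign turned for Thra 92348_at with the mean of its 2 probe sets (-0.014), for Thra 99077_at in dChip (0.033) and for Thrb in dChip (0.027). Leaving out 1 chip gave -0.12 to 0.094 for Thrb in GCRMA, and in dChip -0.015 to 0.030 for Thra 92348_at, -0.047 to 0.11 for Thra 99077_at and -0.011 to 0.065 for Thrb. It also gave -0.040 to 0.18 for the difference of set A minus set B of Thrb and a genotype-by-set term of -0.023 to 0.17 for Ttr; in dChip that term was -0.15 for Thrb. The cause was not tested. The count of members past the test was 0, and 1 with limma on the 8 chips. Over all probe sets it was 13, against 1 in dChip, 159 on the 8 chips, 1 with the analysis of variance, 27 with the pool as a random block, 2 with quantile normalization, 38 at or above the median level (fewer probe sets tested) and 1 to 54 without 1 chip. With no replicate block, which drops the pairing by set, it was 0, with 38 at an unadjusted p under 0.05, and 0 list genes passed. The list gene count was 2, against 0 in dChip, 6 on the 8 chips and 0 to 4 without 1 chip. The filter at the median level left out Thra 99077_at and, in GCRMA, Dio2. These dim probe sets lie nearest to background, and no detection calls were used.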

Other observations

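Between the members themselves, the set-centred r over the 8 chips, a description over 4 pools, was -0.862 for Crym and Dio2 in GCRMA and -0.546 in dChip. For Ttr and Dio2 it was -0.875 in GCRMA and -0.530 in dChip. For Dio2 and Thra 92348_at it was 0.830 in GCRMA and 0.736 in dChip. The 2 Thra probe sets had an r of -0.681 in GCRMA and -0.576 in dChip on that scale, and of -0.867 and -0.939 without subtracting the set means. The set and pool differences are part of these values: on the wild-type duplicates of set A, for example, both probe sets were higher on chip A2 in both normalizations.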
